A study of Homo sapiens with 12 samples.

Results

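The 3 libraries from cells transfected with Dicer carrying mutation 2 were compared with the 3 libraries from cells transfected with Dicer carrying mutation 3. These 6 libraries were chosen by their treatment labels, out of 12 in the series, in which 3 libraries each came from wild-type Dicer, mutation 1, mutation 2 and mutation 3. All cells were MDA-MB-231, an established human triple-negative breast cancer line, and all received a Dicer plasmid by lipofection with a lipofectamine reagent. Poly(A)-selected RNA was sequenced, and read pairs were counted per gene. The labels number the mutations and do not name the residues they change, and they do not say whether the cells' own DICER1 gene was intact or for how long the plasmid was present. The comparison asks in which genes the cells given one Dicer mutant differed from those given another, and every log2 fold change below is mutation 3 minus mutation 2.

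Dicer is the cytoplasmic ribonuclease that cuts hairpin precursors into mature microRNAs, after Drosha and DGCR8 have released the hairpins from longer nuclear transcripts. An Argonaute protein then loads 1 strand of the duplex, and the bases near its start, the seed, pair with target messenger RNAs, which are repressed and degraded. In breast cancer cells, microRNA families such as let-7, miR-200, miR-29 and miR-17 are known for acting on genes of proliferation, matrix and epithelial identity. Poly(A) libraries measure the host transcripts and targets of microRNAs, and mature microRNAs were not analysed here.

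The libraries held 13507341 to 16789948 counts with mutation 2 and 13815164 to 16455023 with mutation 3. Libraries of the same group differed little, with a Spearman correlation across genes of 0.9971 to 0.9975, against 0.9494 to 0.9502 between the groups (genes are not independent replicates). The difference over sampling noise, as chi-square per degree of freedom, was 1.3 to 3.51 within the groups and 85.23 to 103.73 between them. The highest values within a group, 3.28 and 3.51, came from the pairs with mutation 2 replicate 1, which also had the highest share of mitochondrial mRNA. Replicate 3 of mutation 2 stood apart in another way. In it, 86 genes at 0.5 CPM (counts scaled to library size with TMM factors) or more lay over 5-fold above both other libraries of the group, where each of the other 5 libraries had 1 to 7 such genes. They included IGF2 at 11.4 CPM, COL3A1 at 7.10 and TBX3 at 3.94, against at most 0.389 CPM of any of the 3 in the other 5 libraries. The 86 genes summed to 111 CPM in that library and to 2.98 to 6.22 CPM in the others. Of them, 1 was tested and none was called. The filter on low counts rarely keeps a gene high in 1 library alone, so this does not show whether other genes were affected. Of 14393 genes tested without mutation 2 replicate 3, 10705 passed, and of 14553 tested without mutation 2 replicate 1, 10961 passed, against 10994 of 14143 with all 6 libraries. Whether the 3 libraries of a group were separate cultures or transfections is not in the labels. All p-values therefore rest on a spread among these samples that could be technical in origin.

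The line's identity was checked on marker genes. VIM, the mesenchymal intermediate filament, had 722 to 1207 CPM, while ESR1, PGR and CDH1, the oestrogen and progesterone receptors and E-cadherin, had at most 0.653, 0.074 and 1.20 CPM in any of the 6 libraries. CDKN2A, also planned as a marker that should be low or at 0, had 1.07 CPM in mutation 2 replicate 3 and 0 in the others. It is among the 86 genes that stood out in that library. Summed markers of other cell types lay at 6.14 to 9.65 CPM for leukocytes (CD3E at 0), 4.15 to 5.75 for endothelium, 4.47 to 6.29 for neurons and 0.984 to 4.14 for melanocytes (TYR at 0). Erythroid, hepatocyte, secretory and pluripotency markers summed to at most 0.875 CPM. Of the 6 such markers that passed the filter on low counts, 2 were higher with mutation 3, the melanosome gene PMEL at 1.61 (SE 0.24) and the neuronal gene MAP2 at 0.37 (SE 0.17), and none was lower. The MAP2 call was lost with DESeq2 (adjusted p = 0.123), with no filter on low counts (0.0802), with all 12 libraries (0.151) and without mutation 2 replicate 2 or 3 or mutation 3 replicate 2 or 3 (0.0986 to 0.15).

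DICER1 (ENSG00000100697, chromosome 14, 95086228 to 95158010 on hg38), the gene carried by the plasmid, had 44.4, 45.6 and 45.6 CPM with mutation 2 and 39.3, 38.8 and 40.03 CPM with mutation 3. The groups did not overlap, and the mutation 3 libraries were lower by a small step (log2 fold change -0.19, SE 0.054, adjusted p = 0.000976). Counts do not separate plasmid transcripts from those of the genome, so this level does not check the transfection. A fit to all 12 libraries did not call DICER1 (adjusted p = 0.313). That fit adds the spread of the wild-type libraries, in which DICER1 had 27.3, 45.1 and 47.3 CPM.

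Of 14143 genes tested, 10994 (77.7%) passed the test at an adjusted p under 0.05 (edgeR quasi-likelihood, Benjamini-Hochberg over all genes tested), which is called higher or lower here. The split was even, with 5511 genes (39.0%) higher and 5483 (38.8%) lower with mutation 3. Most differences were small: the median size was 0.48 on the log2 scale, and 2844 genes (20.1%) combined a call with a difference of 2-fold or more, 1458 upward (10.3%) and 1386 downward (9.8%). A test against a 1.5-fold difference (glmTreat) passed 4251 genes (30.1%), 2141 higher (15.1%) and 2110 lower (14.9%), and 636 called genes lay over 4-fold apart. In 78.2% of the tested genes the 3 libraries of one group did not overlap with those of the other. These shares are the background for the count of calls in any list below.

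**Figure D1:**
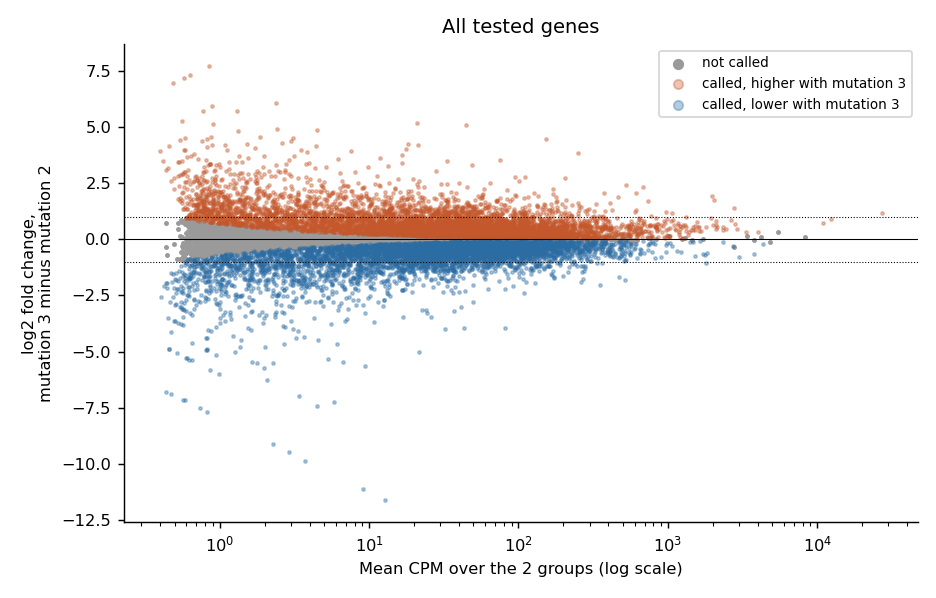
Each point is a tested gene, with its mean level over both groups (CPM, log scale) on the x axis and its log2 fold change, mutation 3 minus mutation 2, on the y axis. Dotted lines mark a 2-fold difference. The 5511 higher and 5483 lower genes spread evenly about 0; 55 called genes lie over 16-fold lower and 34 over 16-fold higher.

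The genes with the largest decreases had no or few counts with mutation 3. GYPC (ENSG00000136732, chromosome 2, 126655933 to 126696670), a glycophorin of the membrane skeleton, had 26.1, 23.97 and 26.4 CPM with mutation 2 and no count in any mutation 3 library, at least 126-fold lower against a floor of 3 counts per library. PTPRN2, a phosphatase-like protein of secretory vesicles, was also at 0 in all 3 mutation 3 libraries against 19.3, 15.8 and 19.1 CPM, at least 89.7-fold lower. SPANXB1, a cancer-testis gene with near-identical copies whose level is therefore uncertain, and SHROOM4, an actin-binding protein, were at 0 as well, at least 37.1-fold and 28.8-fold lower. COL4A5 (ENSG00000188153, chromosome X, 108439844 to 108697545), a basement membrane collagen chain, had 12.2, 12.2 and 10.2 CPM with mutation 2 and 3 counts in all with mutation 3, a ratio of 171 (95% exact counting interval 58.3 to 833). With 2 counts each with mutation 3, the phosphatase inhibitor PPP1R14C and the chemokine scavenger ACKR3 had ratios of 202 (55.5 to 1670.0) and 151 (41.4 to 1250.0). These intervals and floors cover counting error only. Fitted with all 12 libraries, SPANXB1 no longer passed (adjusted p = 0.0535). Its wild-type libraries, which enter that fit, had 0.59, 220 and 227 CPM.

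PAPPA, a secreted metalloprotease that cleaves IGF-binding proteins, fell from 19.3, 17.4 and 18.8 CPM with mutation 2 to 0.375, 0.326 and 0.37 with mutation 3 (log2 fold change -5.65, SE 0.19, adjusted p = 2.49e-38). TNS1, a focal adhesion protein, lay at 40.1, 43.3 and 42.5 against 1.38, 1.04 and 1.48 CPM (log2 fold change -5.00, SE 0.12, adjusted p = 1.41e-47). Groups without overlap were a condition for the largest decreases, so the separation of both genes is not a result. LBH, ADAM28, AKR1C2, FAM222A, B3GALT5 and MOB3B completed the 15 largest decreases, with log2 fold changes from -5.45 for LBH to -4.38 for MOB3B. AKR1C2 and its neighbour AKR1C1 are close paralogs, so their separate levels are uncertain.

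In the other direction, BAHCC1 (ENSG00000266074, chromosome 17, 81395475 to 81466332), a chromatin protein, had 1.26, 0.907 and 1.24 CPM with mutation 2 and 40.95, 40.3 and 40.9 with mutation 3 (log2 fold change 5.16, SE 0.12, adjusted p = 5.38e-48). NGFR (ENSG00000064300, chromosome 17, 49495293 to 49515017), the low-affinity neurotrophin receptor, had 2.11, 2.72 and 2.82 against 87.9, 85.5 and 85.7 CPM (log2 fold change 5.07, SE 0.084, adjusted p = 8.69e-57). Both were at a trace with mutation 2 and tightly grouped at a higher level with mutation 3. GDF15 (ENSG00000130513, chromosome 19, 18374731 to 18389176), a stress-responsive member of the TGF-beta family, had 13.6, 13.3 and 13.2 against 306, 289.7 and 282 CPM (log2 fold change 4.46, SE 0.048, adjusted p = 8.62e-68). AREG (ENSG00000109321, chromosome 4, 74445134 to 74455009), the EGF receptor ligand amphiregulin, had 35.4, 33.6 and 30.4 against 468, 472 and 475 CPM (log2 fold change 3.85, SE 0.039, adjusted p = 1.41e-69). For CA9 (ENSG00000107159, chromosome 9, 35673856 to 35681159), a carbonic anhydrase induced by low oxygen, the values were 1.20, 2.14 and 2.03 against 32.1, 36.8 and 34.9 CPM (log2 fold change 4.26, SE 0.12, adjusted p = 4.52e-43). Groups without overlap were a condition for the 15 largest changes each way, so this separation is not a result for these 5 genes. The other 10 of the 15 largest increases were KRT81 (a hair keratin with close paralogs), NAT16, SNHG18, PADI1, THBS1-IT1, UPB1, SDCBP2, OXTR, KLF9 and GSDMB, with log2 fold changes from 3.62 for GSDMB to 4.85 for KRT81. THBS1-IT1 is annotated inside the THBS1 gene, and counts made without strand do not separate overlapping transcripts; THBS1 itself, an adhesive glycoprotein, was higher at 0.96 (SE 0.025). In the 12-library fit the call was lost for THBS1 (adjusted p = 0.183).

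**Figure D2:**
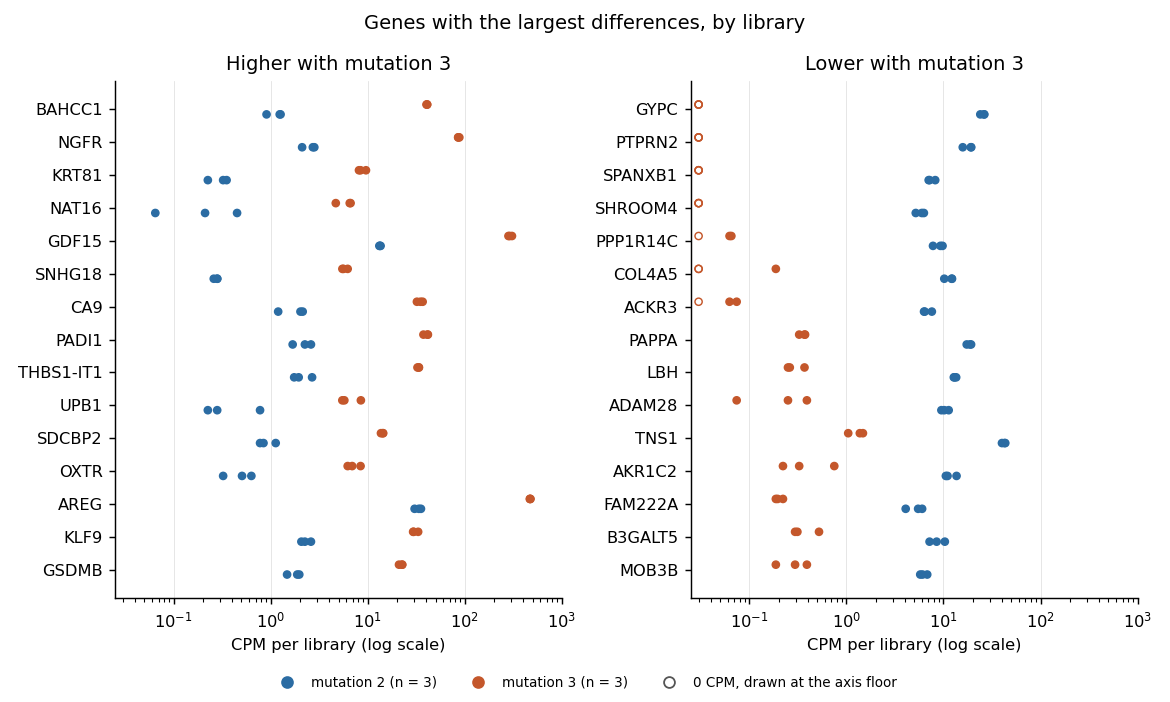
Each dot is the level of a gene in 1 library (CPM, log scale), in blue for mutation 2 and orange for mutation 3, for the 15 largest increases (left) and the 15 largest decreases (right). The genes were chosen among those whose groups did not overlap. GYPC, PTPRN2, SPANXB1 and SHROOM4 are at 0 with mutation 3.

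The levels of the leading genes in the other groups, given here with no test, placed them differently. AREG had 108, 27.9 and 29.1 CPM in the wild-type libraries and 592, 589 and 608 with mutation 1, so both wild type and mutation 2 were low and both mutations 1 and 3 high. For GDF15 the values were 39.9, 14.2 and 12.6 in wild type and 91.6, 82.7 and 91.2 with mutation 1, so mutation 3 was the highest. BAHCC1 had 29.2, 57.7 and 57.4 in wild type and 58.6, 61.8 and 58.7 with mutation 1, so mutation 2 alone was low. TNS1 had 6.95, 2.17 and 1.94 and 6.96, 6.17 and 5.34, so mutation 2 alone was high, as for PTPRN2, with 0, 0.948 and 0.71 and 0, 0.201 and 0.0797. COL4A5 had 21.8, 0.279 and 0.517 in wild type and 17.99, 18.7 and 18.3 with mutation 1. Wild-type replicate 1 differed from wild-type replicates 2 and 3 in several of these genes, so the wild-type level is not a single value.

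Gene groups were read from lists of known pathways and families, and each is described by its counts and its median log2 fold change, beside 39.0% higher, 38.8% lower and a median of 0.004 over all 14143 tested genes. The plot of gene lists shows their members.

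**Figure D3:**
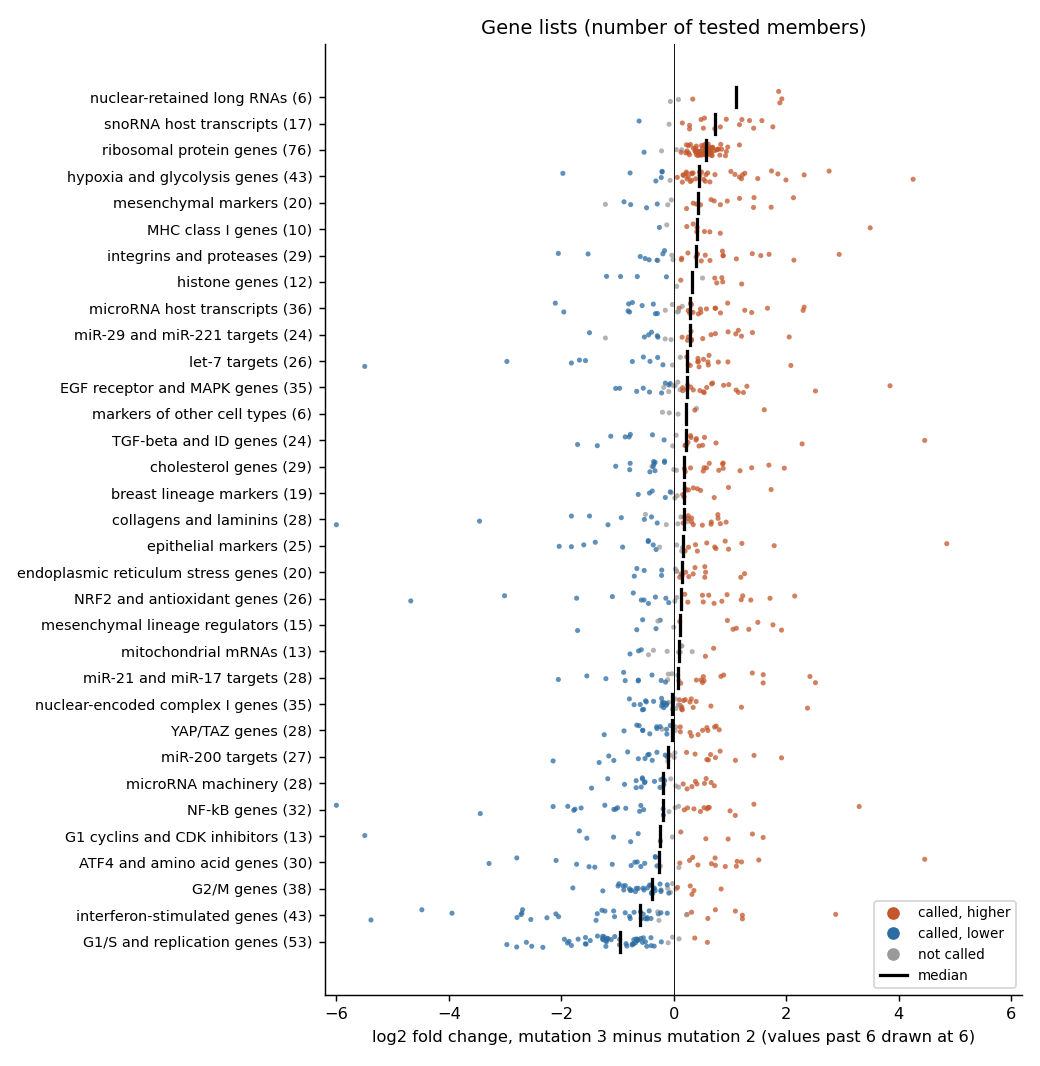
Each dot is a tested gene of a list, placed by its log2 fold change, mutation 3 minus mutation 2 (values past 6 are drawn at 6), and coloured by call; black bars mark medians. Medians run from -0.97 for G1/S and replication genes to 1.10 for nuclear-retained long RNAs, and most lists hold members on both sides of 0.

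Genes of DNA replication were lower with mutation 3. Of 53 tested G1/S and replication genes, 48 were lower and 2 higher, with a median of -0.97, and 36 passed the 1.5-fold test downward and none upward. Among the regulators that open S phase, E2F2, an activating E2F factor, had 20.7, 22.9 and 22.8 CPM with mutation 2 and 2.44, 3.13 and 2.89 with mutation 3 (log2 fold change -2.97, SE 0.12, adjusted p = 3.56e-34). Cyclin E, the partner of CDK2 at the G1/S boundary, was lower in both its genes, CCNE1 at -2.53 (SE 0.11) and CCNE2 at -2.62 (SE 0.15), and the phosphatase CDC25A was lower at -1.82 (SE 0.063). E2F1 had 219.9, 222 and 232 against 95.5, 98.5 and 96.8 CPM. CDK2 itself differed by 0.094 and was not called, except with upper-quartile scaling (0.12, adjusted p = 0.0192), and the repressor E2F7 was higher at 0.37 (SE 0.042). The call of E2F7 did not hold with all 12 libraries in the fit (adjusted p = 0.248).

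The origin and helicase genes were lower in 18 of 20. CLSPN, the checkpoint adaptor claspin, had 89.5, 82.2 and 87.8 against 12.7, 12.1 and 12.4 CPM (log2 fold change -2.79, SE 0.062, adjusted p = 3.74e-49). MCM10 had 66.8, 68.9 and 66.1 against 13.4, 12.8 and 13.8 CPM, and all 6 subunits of the MCM2-7 replicative helicase were lower, from -1.95 for MCM6 to -0.74 for MCM7. CDC6, which loads that helicase, was lower at -1.86 (SE 0.047). CDT1, its partner in loading, was higher, with 57.6, 58.1 and 59.4 against 90.02, 84.6 and 89.2 CPM (log2 fold change 0.60, SE 0.044, adjusted p = 5.78e-20). CDT1 lies in a stretch of chromosome 16 in which most genes were higher (below). At the fork, 17 of 18 genes were lower, with PCNA, the sliding clamp, at 262, 265 and 266 against 78.4, 83.9 and 80.2 CPM (log2 fold change -1.70, SE 0.035, adjusted p = 4.41e-51) and the flap nuclease FEN1 at -1.89 (SE 0.04). All 6 genes of nucleotide supply were lower, led by the ribonucleotide reductase subunit RRM2 at -1.57 (SE 0.035). The groups did not overlap in any gene named in this paragraph, as in 78.2% of all tested genes. These members were named for the size of their change or after their values were seen.

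Genes of G2 and mitosis were lower by smaller steps. Of 38 tested, 29 were lower and 5 higher, with a median of -0.39, and 11 passed the 1.5-fold test downward. MKI67, the proliferation antigen Ki-67, had 818, 776 and 807 against 229.9, 227 and 230.4 CPM (log2 fold change -1.79, SE 0.028, adjusted p = 2.31e-58), and it lies in a stretch of chromosome 10 in which most genes were lower (below). The hyaluronan receptor HMMR and the motor KIF4A were lower at -1.26 (SE 0.12) and -0.99 (SE 0.039), and the mitotic transcription factor FOXM1 at -0.86 (SE 0.036). CDC25B, a phosphatase that triggers mitosis, was higher, with 209.5, 231 and 230.1 against 404, 394 and 399 CPM (log2 fold change 0.84, SE 0.03, adjusted p = 1.44e-36). UBE2C, AURKB, WEE1 and ANLN were the other 4 higher genes, at 0.36, 0.29, 0.32 and 0.067. The ANLN call was lost with no filter on low counts (adjusted p = 0.124), with the 9 mutant libraries (0.0784), with all 12 libraries (0.749) and without mutation 2 replicate 2 or 3 or mutation 3 replicate 2 or 3 (0.0554 to 0.0911).

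G1 cyclins and their inhibitors moved in both directions. CCND1, cyclin D1, had 705, 722 and 742 CPM with mutation 2 and 224, 224 and 227 with mutation 3 (log2 fold change -1.68, SE 0.028, adjusted p = 8.69e-57), and CCND3 was lower at -0.77 (SE 0.04). CCND2 had 5.06, 4.73 and 3.55 against 0.188, 0.0653 and 0 CPM (log2 fold change -5.50, SE 0.40, adjusted p = 1.6e-20). The inhibitors CDKN1B (p27) and the pocket protein RBL2 (p130) were higher at 0.97 (SE 0.056) and 1.59 (SE 0.052), while RBL1 (p107) and CDKN2C (p18) were lower at -1.55 (SE 0.051) and -1.07 (SE 0.051). RBL2 lies in a stretch of chromosome 16 in which most genes were higher (below). In all, 5 of 13 tested members were higher and 7 lower. Fitting all 12 libraries gave 3 higher calls.

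E2F factors bind a short element of T bases followed by G and C, and the promoters of the replication genes were read for it. RefSeq promoters (250 bases before the start site, build GRCh38.p14) were matched for 43 of the 53 genes, and 15 of them (34.9%) held TTTGGCGC, TTTCCCGC, TTTGCCGC or TTTCGCGC on either strand, against 2.79% of all 27305 promoters and 4.41% of those of 10426 tested genes. Of these 15 genes, 14 were lower and 1 higher, where 48 of all 53 were lower and 2 higher. The share with a match follows from the choice of list and is not a result about mutation 3 against mutation 2. The same holds for the elements read below. Overlapping matches on both strands were counted as 1 promoter. The promoters of CDC25A and E2F1 are shown because both genes are regulators of entry into S phase and both were lower; capitals mark the matches.
CDC25A (chr3:48188418-48188667, minus strand): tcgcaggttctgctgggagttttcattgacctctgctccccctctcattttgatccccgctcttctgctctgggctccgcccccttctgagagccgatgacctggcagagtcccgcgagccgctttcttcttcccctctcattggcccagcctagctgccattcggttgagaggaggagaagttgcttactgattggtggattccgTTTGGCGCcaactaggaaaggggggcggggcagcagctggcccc
E2F1 (chr20:33686386-33686635, minus strand): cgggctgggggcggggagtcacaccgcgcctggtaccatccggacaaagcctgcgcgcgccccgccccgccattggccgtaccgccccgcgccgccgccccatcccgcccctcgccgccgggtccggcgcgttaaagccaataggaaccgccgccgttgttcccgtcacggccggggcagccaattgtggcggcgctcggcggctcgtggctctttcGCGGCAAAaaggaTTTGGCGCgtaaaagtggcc
In CDC25A the match begins 44 bases before the start site, and in E2F1 the 2 matches begin 33 and 20 bases before it. The 15 promoters with a match went with a median log2 fold change of -1.21 and the 28 without one with -0.73. A match is a description of the letters in this window and not a binding site.

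Interferon-stimulated genes were lower with mutation 3, with a few exceptions. Of 43 tested, 32 were lower and 8 higher, with a median of -0.59, and 21 passed the 1.5-fold test downward against 5 upward. These genes encode proteins induced by interferon that act against viruses, and none of the 4 interferon ligand genes of the list passed the filter on low counts. Among sensors of foreign RNA, TLR3 had 7.80, 8.29 and 7.49 against 1.69, 1.63 and 1.55 CPM (log2 fold change -2.26, SE 0.17, adjusted p = 1.47e-19), and RIGI and IFIH1 were lower at -0.47 (SE 0.062) and -0.44 (SE 0.076). Of the transcription factors, IRF1 was lower at -0.71 (SE 0.051), whereas STAT2, a member of the interferon-activated complex, had 54.3, 55.01 and 56.05 against 124, 133 and 126 CPM (log2 fold change 1.22, SE 0.042, adjusted p = 1.07e-37). IRF9, another member of that complex, was higher too, at low levels of 0.141, 0.389 and 0.338 against 2.12, 2.09 and 2.44 CPM (log2 fold change 2.88, SE 0.36, adjusted p = 5.87e-11). A fit to all 12 libraries did not call IFIH1 (adjusted p = 0.0842).

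Effectors were lower in 25 of 32, with a median of -0.96. HERC6, SAMD9, OASL and IFI44 were the 4 largest decreases among members at 5 CPM or more, at -2.72 (SE 0.14), -2.70 (SE 0.12), -2.69 (SE 0.12) and -2.54 (SE 0.12). OASL, an oligoadenylate synthase-like protein, had 23.4, 22.2 and 20.2 CPM with mutation 2 and 3.63, 3.65 and 2.74 with mutation 3. The abundant members followed by smaller steps: IFIT1, which binds viral RNA, had 42.1, 40.04 and 42.4 against 15.2, 18.7 and 17.2 CPM (log2 fold change -1.28, SE 0.068, adjusted p = 3.87e-27), IFIT3 lay at -1.22 (SE 0.049) and the ubiquitin-like ISG15 at -1.38 (SE 0.066). RSAD2 (viperin) was the furthest apart, with 60 counts with mutation 2 and 1 with mutation 3, a ratio of 56.7 (counting interval 9.8 to 2280.0). Against the list, all 3 IFITM genes, which block viral entry at membranes, were higher: IFITM1 had 9.56, 7.71 and 6.70 against 20.6, 18.3 and 15.8 CPM (log2 fold change 1.22, SE 0.11, adjusted p = 3.75e-16), IFITM2 lay at 1.09 (SE 0.059) and IFITM3 at 0.74 (SE 0.033). IFI27 was also higher, at 0.61 (SE 0.14). IFITM1 and IFITM3 lie in a stretch of chromosome 11 in which most genes were higher (below).

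Interferon-responsive promoters carry an element with paired GAAA letters. Of 32 list promoters matched, 18 (56.2%) held GAAA, any 2 bases and GAAA again on either strand, against 3.07% of all promoters and 2.25% of those of tested genes. Genes with and without a match had similar medians, -0.72 and -0.65, and of the 18, 15 were lower and 3 higher. The promoters of IFIT1 (lower) and IFITM1 (higher) are shown side by side because both hold the element, in capitals, while the genes differed in opposite directions.
IFIT1 (chr10:89392373-89392622, plus strand): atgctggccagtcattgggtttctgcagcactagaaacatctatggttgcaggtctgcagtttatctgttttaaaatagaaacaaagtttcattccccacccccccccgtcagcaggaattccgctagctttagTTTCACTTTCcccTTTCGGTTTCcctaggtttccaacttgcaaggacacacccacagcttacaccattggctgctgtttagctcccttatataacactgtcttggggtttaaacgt
IFITM1 (chr11:313790-314039, plus strand): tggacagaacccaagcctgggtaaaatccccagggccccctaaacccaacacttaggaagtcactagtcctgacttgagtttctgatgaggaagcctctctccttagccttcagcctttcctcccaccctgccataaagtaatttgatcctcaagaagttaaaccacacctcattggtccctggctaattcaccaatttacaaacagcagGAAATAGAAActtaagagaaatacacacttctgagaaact
In IFIT1 the 2 matches begin 116 and 103 bases before the start site, and in IFITM1 the match begins 40 bases before it.

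Antigen presentation genes did not follow the interferon effectors. Of 10 tested MHC class I genes, 8 were higher and 1 lower, with a median of 0.41 (5 higher with all 12 libraries in the fit). B2M, the light chain of class I molecules, had 208, 221 and 207 against 289, 308 and 326 CPM (log2 fold change 0.55, SE 0.033, adjusted p = 3.09e-21), HLA-B lay at 0.41 (SE 0.032) and NLRC5, the class I transactivator, at 0.64 (SE 0.049). ERAP1, which trims peptides, was lower at -0.26 (SE 0.042). HLA-B and NLRC5 lie in stretches of chromosomes 6 and 16 in which most genes were higher (below). TAP1, a peptide transporter subunit, was listed at or near 0 in all 6 libraries, and class I genes have near-identical copies, so these levels are uncertain. Fitted with all 12 libraries, HLA-B no longer passed (adjusted p = 0.445).

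NF-kB genes were split, with 12 of 32 higher and 17 lower. Of 17 tested ligands, 7 were higher and 10 lower. The neutrophil chemokine CXCL1 had 63.8, 59.3 and 61.6 against 15, 13.4 and 12.9 CPM (log2 fold change -2.15, SE 0.065, adjusted p = 3.95e-41), and its relatives CXCL8 and CXCL3 lay at -1.07 (SE 0.041) and -1.89 (SE 0.19). CCL2, the monocyte chemokine, had 193 counts with mutation 2 and 2 with mutation 3, a ratio of 91.3 (counting interval 24.9 to 759). The interleukin gene IL24 had 8.999, 8.68 and 9.46 against 86.95, 90.2 and 89.1 CPM (log2 fold change 3.30, SE 0.064, adjusted p = 1.59e-52), and IL1B and IL6 lay at 1.43 (SE 0.044) and 1.09 (SE 0.063). The precursor subunit NFKB1 was lower at -1.03 (SE 0.048) and NFKB2 higher at 0.59 (SE 0.029), and the inhibitor NFKBIA was lower at -0.85 (SE 0.04).

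Genes of low oxygen and glucose use were higher with mutation 3. Of 43 tested, 36 were higher and 6 lower, with a median of 0.46, and 15 passed the 1.5-fold test upward against 2 downward. In the 12-library fit, 17 were called higher and 2 lower. Of the sensors and factors, 5 of 6 were higher: HIF1A, the oxygen-regulated subunit of HIF-1, had 160.2, 171 and 164 against 394, 392 and 395 CPM (log2 fold change 1.26, SE 0.03, adjusted p = 3.16e-47), EPAS1 (HIF-2 alpha) lay at 1.49 (SE 0.037) and their partner ARNT at 1.09 (SE 0.055). EGLN1, the prolyl hydroxylase that marks HIF subunits for destruction, was lower at -0.78 (SE 0.041), and EGLN3 higher at 0.60 (SE 0.071). In the 12-library fit the call was lost for EGLN3 (adjusted p = 0.467).

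Of 16 other targets, 14 were higher and 2 lower, with CA9 (above) the furthest apart. VEGFA, the angiogenic factor, had 225, 235 and 229.6 CPM with mutation 2 and 1151, 1141 and 1129 with mutation 3 (log2 fold change 2.32, SE 0.028, adjusted p = 1.9e-65). ADM, the vasodilator adrenomedullin, had 23.3, 23.3 and 23.1 against 91.9, 88.7 and 96.1 CPM (3.98-fold, adjusted p = 2.25e-44), and NDRG1, a stress-responsive cytoplasmic protein, lay at 1.74 (SE 0.026). ANGPTL4, a lipase inhibitor that is also a hypoxia target, went the other way, with 30.4, 28.4 and 27.1 against 7.13, 7.24 and 7.33 CPM (log2 fold change -1.97, SE 0.089, adjusted p = 3.89e-31). Among glycolysis genes, 17 of 21 were higher and 3 lower, led by the neuronal-type glucose transporter SLC2A3, with 29.2, 26.8 and 29.7 against 197, 188 and 194 CPM (log2 fold change 2.76, SE 0.044, adjusted p = 1.39e-57), and the aldolase ALDOC at 1.85 (SE 0.095). GAPDH was higher at 0.46 (SE 0.025), while LDHA, lactate dehydrogenase, and PKM, pyruvate kinase, were lower at -0.32 (SE 0.025) and -0.21 (SE 0.024). The core of the hypoxia response element, ACGTG on either strand, was in 17 of 38 matched promoters (44.7%), against 18.7% of all promoters and 23.5% of those of tested genes. Of these 17 genes, 13 were higher and 4 lower, where 36 of the 43 tested genes of the list were higher and 6 lower. The median log2 fold change was 0.457 with a match and 0.344 without one. The call of PKM, LDHA and NDRG1 did not hold with all 12 libraries in the fit (adjusted p = 0.18, 0.435 and 0.087).

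Nearly all ribosomal protein genes were higher with mutation 3. Of 76 tested, 72 were higher and 1 lower, with a median of 0.57, and 18 passed the 1.5-fold test. RPL13 had 639, 658 and 668 against 1475, 1471 and 1444 CPM (log2 fold change 1.17, SE 0.026, adjusted p = 3.54e-49), RPL12 lay at 0.96 (SE 0.026) and RPS27 at 0.94 (SE 0.046). RPS10 was the 1 lower member, at -0.53, with groups that overlapped (5.48, 4.54 and 5.58 against 3.06, 4.57 and 3.11 CPM). Many of these genes have processed pseudogenes, and RPS18 was listed at or near 0 in all 6 libraries, so single levels are uncertain. Of 17 tested host transcripts of small nucleolar RNAs, which guide the modification of ribosomal RNA from introns of such hosts, 15 were higher and 1 lower, with a median of 0.73. GAS5 had 83.7, 79.8 and 82.7 against 199.5, 219.5 and 204 CPM (log2 fold change 1.35, SE 0.037, adjusted p = 3.1e-43), SNHG16 lay at 1.57 (SE 0.045) and EPB41L4A-AS1 at 1.76 (SE 0.079). SNHG9 was the lower one, at -0.62, and was not called without mutation 2 replicate 3 (-0.42, adjusted p = 0.107) or without mutation 3 replicate 1 (-0.40, adjusted p = 0.0947). A fit to all 12 libraries did not call SNHG9 (adjusted p = 0.107).

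Of 6 tested long noncoding RNAs that stay in the nucleus, 4 were higher with mutation 3 and none was lower. MALAT1 (ENSG00000251562, chromosome 11, 65497688 to 65506516), a nuclear speckle RNA, had 828, 804 and 865 CPM with mutation 2 and 3110.0, 3116 and 3177 with mutation 3 (log2 fold change 1.92, SE 0.027, adjusted p = 1.69e-61). NEAT1, the scaffold of paraspeckles, had 197, 195 and 199.7 against 723, 717 and 736 CPM (log2 fold change 1.89, SE 0.028, adjusted p = 6.64e-60), and the antisense regulator KCNQ1OT1 lay at 1.86 (SE 0.10). The 3 RNAs were higher by nearly the same factor, 3.79, 3.70 and 3.64, while TUG1 differed by -0.061 and was not called. Across classes of genes, 557 of 1230 long noncoding RNAs (45.3%) were higher and 246 lower (median 0.39), against 38.2% and 42.1% of 12093 protein-coding genes (median -0.04). Pseudogenes were higher in 38.6% and lower in 16.6% of 477. Of 12 tested histone genes, 6 were higher and 4 lower. Poly(A) selection leaves the level of any histone or long noncoding RNA without a poly(A) tail uncertain. The variants H2AX and H2AZ1, whose messages carry poly(A) tails, were lower at -1.20 (SE 0.034) and -0.95 (SE 0.029).

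Of 28 tested genes of the microRNA machinery, 9 were higher and 16 lower with mutation 3, with a median of -0.19. In nuclear processing, 4 of 5 were lower and none higher. DGCR8 (ENSG00000128191, chromosome 22, 20080232 to 20111877), the RNA-binding partner of Drosha, had 51.8, 56.95 and 56.6 CPM with mutation 2 and 19.2, 20.4 and 20.3 with mutation 3 (log2 fold change -1.46, SE 0.061, adjusted p = 4.91e-33), and DROSHA had 104, 103 and 104 against 66.6, 62.6 and 65.1 (log2 fold change -0.67, SE 0.042, adjusted p = 1.81e-23). Both export factors were lower, XPO5 (exportin 5) at -0.24 (SE 0.039) and RAN at -0.67 (SE 0.028). Of Dicer's partners, TARBP2 was lower at -0.88 (SE 0.086) and the RNA-editing enzyme ADAR at -0.18 (SE 0.03). At the silencing complex the members were mixed: AGO1 was lower at -0.34 (SE 0.057), AGO3 and AGO4 higher at 0.55 (SE 0.068) and 0.38 (SE 0.073), and AGO2, the slicing Argonaute, had 27.1, 28.8 and 27.4 against 29.1, 27.9 and 31.1 CPM, which overlapped and was not called. Among tailing and decay factors, DIS3L2, the exonuclease that degrades uridylated precursors of let-7, was lower at -1.17 (SE 0.074). The terminal transferases TENT2 and TUT7 were higher at 0.72 (SE 0.056) and 0.67 (SE 0.065), as was ZSWIM8, the receptor for target-directed microRNA decay, at 0.57 (SE 0.054). Fitted with all 12 libraries, ADAR and ZSWIM8 no longer passed (adjusted p = 0.0511 and 0.072).

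**Figure D4:**
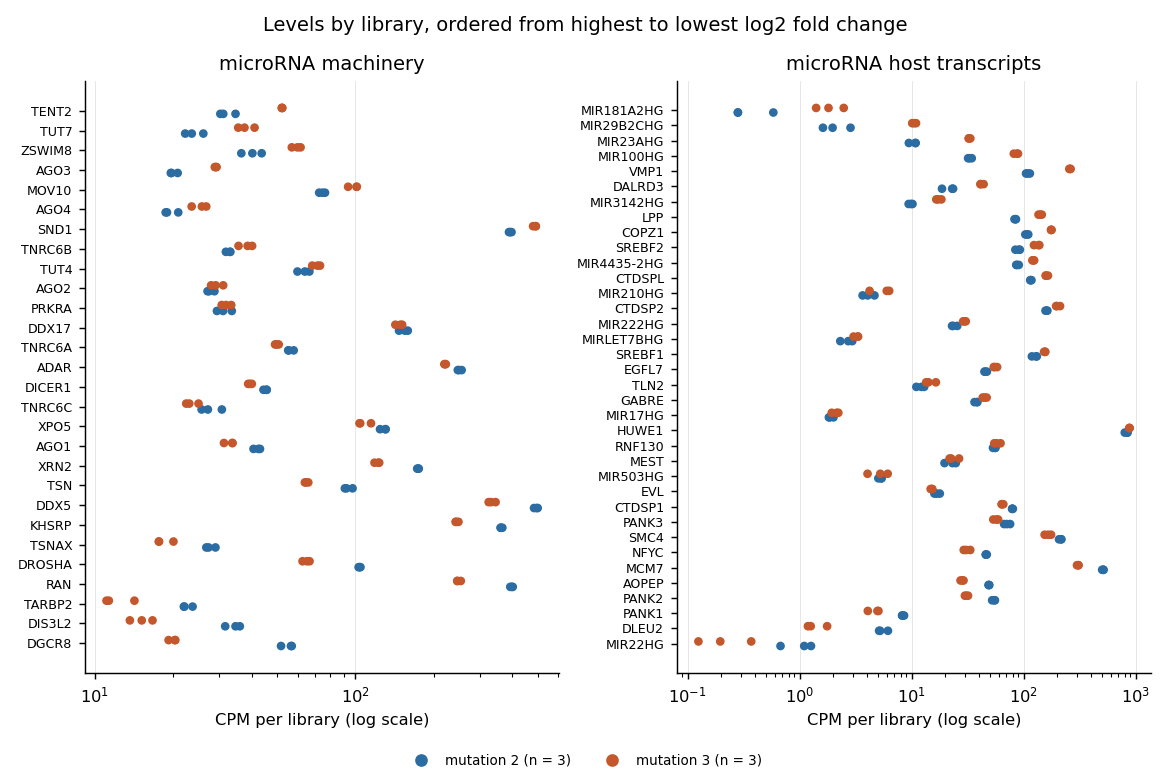
Each dot is the level in 1 library (CPM, log scale) of a gene of the microRNA machinery (left) or of a transcript that contains microRNAs (right), ordered by log2 fold change. In DGCR8, DIS3L2 and TARBP2, at the bottom on the left, and in DLEU2, the mutation 2 dots lie to the right of the mutation 3 dots; in MIR29B2CHG and MIR23AHG they lie to the left.

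Host transcripts carry microRNA hairpins in their introns or exons. Of 48 listed, 36 passed the filter on low counts, and 20 of these were higher and 10 lower (median 0.29). All 36 held a RefSeq mature microRNA on their strand, 118 in total (build GRCh38.p14). Hosts of well-studied families among those called at 5 CPM or more in the higher group are shown with sequences they carry, 5′ to 3′, with the seed (bases 2 to 8) in capitals. Higher with mutation 3 were MIR29B2CHG, host of miR-29b and miR-29c, with 1.62, 2.85 and 1.97 against 10.6, 10.96 and 10.1 CPM (log2 fold change 2.30, SE 0.15, adjusted p = 3.16e-22), and MIR23AHG, host of the miR-23a cluster, with 10.8, 9.46 and 10.9 against 33.5, 32.4 and 32.5 CPM (log2 fold change 1.67, SE 0.078, adjusted p = 4.68e-30). MIR100HG, host of miR-100, let-7a and miR-125b, and VMP1, the autophagy gene next to miR-21, were higher at 1.39 (SE 0.051) and 1.26 (SE 0.034). Their microRNAs are as follows.
hsa-miR-29b-3p (chr1:207802450-207802472, minus strand): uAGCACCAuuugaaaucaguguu
hsa-miR-29c-3p (chr1:207801865-207801886, minus strand): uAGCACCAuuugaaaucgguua
hsa-miR-23a-3p (chr19:13836595-13836615, minus strand): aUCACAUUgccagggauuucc
hsa-miR-27a-3p (chr19:13836447-13836467, minus strand): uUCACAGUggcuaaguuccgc
hsa-miR-24-3p (chr19:13836289-13836310, minus strand): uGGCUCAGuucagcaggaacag
hsa-miR-100-5p (chr11:122152275-122152296, minus strand): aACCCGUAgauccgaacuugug
hsa-let-7a-5p (chr11:122146568-122146589, minus strand): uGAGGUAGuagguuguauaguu
hsa-miR-125b-5p (chr11:122099809-122099830, minus strand): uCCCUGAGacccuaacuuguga
hsa-miR-21-5p (chr17:59841273-59841294, plus strand): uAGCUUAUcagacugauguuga
miR-29b and miR-29c share the seed AGCACCA and come from 1 host.

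Lower with mutation 3 were DLEU2, host of miR-15a and miR-16, with 5.13, 6.16 and 5.24 against 1.19, 1.76 and 1.26 CPM (log2 fold change -1.96, SE 0.20, adjusted p = 4.33e-14), and the helicase gene MCM7, host of the miR-106b cluster, with 504, 516 and 518 against 310.1, 300.2 and 308 CPM (log2 fold change -0.74, SE 0.027, adjusted p = 6.36e-36). AOPEP, an aminopeptidase gene that hosts the miR-23b cluster, had 49.5, 48.7 and 48.95 against 27.4, 29.1 and 28.4 CPM (log2 fold change -0.79, SE 0.057, adjusted p = 1.82e-20). The pantothenate kinase genes PANK1, PANK2 and PANK3, hosts of miR-107 and miR-103a, were all lower, at -0.81 (SE 0.13), -0.80 (SE 0.055) and -0.33 (SE 0.049). Their microRNAs are as follows.
hsa-miR-15a-5p (chr13:50049167-50049188, minus strand): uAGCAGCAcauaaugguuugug
hsa-miR-16-5p (chr13:50049027-50049048, minus strand): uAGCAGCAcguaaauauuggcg
hsa-miR-106b-5p (chr7:100094043-100094063, minus strand): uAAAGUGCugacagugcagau
hsa-miR-93-5p (chr7:100093815-100093837, minus strand): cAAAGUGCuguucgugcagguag
hsa-miR-25-3p (chr7:100093571-100093592, minus strand): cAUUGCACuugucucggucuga
hsa-miR-23b-3p (chr9:95085265-95085287, plus strand): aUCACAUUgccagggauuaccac
hsa-miR-27b-3p (chr9:95085505-95085525, plus strand): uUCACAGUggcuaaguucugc
hsa-miR-24-3p (chr9:95086064-95086085, plus strand): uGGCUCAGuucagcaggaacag
hsa-miR-107 (chr10:89592756-89592778, minus strand): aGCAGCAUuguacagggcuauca
hsa-miR-103a-3p (chr20:3917541-3917563, plus strand): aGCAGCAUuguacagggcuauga
The clusters in MIR23AHG and AOPEP carry the same 3 seeds, as the capitals show, and their hosts differed in opposite directions. The seed AAAGUGC of miR-106b and miR-93 is also that of miR-17 and miR-20a, whose host MIR17HG had 1.83, 2.01 and 1.86 against 1.94, 2.22 and 2.15 CPM and was not called. Host levels are levels of long transcripts and do not give the mature microRNA.

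Known targets of these families were on both sides of 0. For let-7, 14 of 26 tested targets were higher and 10 lower (8 and 8 with all 12 libraries in the fit). The architectural protein HMGA2 and the RNA-binding IGF2BP3 and IGF2BP2 were higher at 0.63 (SE 0.052), 0.26 (SE 0.085) and 0.42 (SE 0.04), as was ARID3A at 2.08 (SE 0.16), and the lower members were led by cell cycle genes, CCND2, E2F2, CDC25A, CCND1 and RRM2, described above. Without mutation 3 replicate 1, IGF2BP3 lay at 0.13 and was not called (adjusted p = 0.21). For miR-200, 10 of 27 were higher and 13 lower: FN1, fibronectin, had 74.9, 76.97 and 70.1 against 197, 202 and 193 CPM (log2 fold change 1.43, SE 0.038, adjusted p = 1.41e-44) and the leptin receptor LEPR lay at 1.92 (SE 0.083), while CXCL1 and the phosphatase PPM1F were lower, the latter at -1.16 (SE 0.05). For miR-21 and miR-17, 13 of 28 were higher and 10 lower. TXNIP, an inhibitor of glucose uptake and thioredoxin, had 168, 169 and 164 against 886, 889 and 893 CPM (log2 fold change 2.42, SE 0.028, adjusted p = 6.13e-66), and the repressor HBP1 was higher at 1.59 (SE 0.059). For miR-29 and miR-221, 15 of 24 were higher and 6 lower (8 and 4 with all 12 libraries). The apoptosis gene BBC3 (PUMA) was higher at 2.05 (SE 0.082) and the methyltransferase DNMT3A at 0.74 (SE 0.092), while DNMT3B and COL6A3 were lower at -0.45 (SE 0.14) and -0.52 (SE 0.087). In the 12-library fit the call was lost for COL6A3, DNMT3B, HMGA2 and IGF2BP3 (adjusted p = 0.0821, 0.307, 0.253 and 0.322).

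Mesenchymal markers were more often higher, with 13 of 20 tested higher and 4 lower and a median of 0.44. Of the transcription factors that drive loss of epithelial traits, SNAI1 had 1.05, 1.62 and 1.92 against 6.69, 7.11 and 6.59 CPM (log2 fold change 2.13, SE 0.18, adjusted p = 4.92e-17) and its relative SNAI2 went the other way, with 16.7, 17.6 and 17.6 against 9.25, 10.3 and 8.29 CPM (log2 fold change -0.89, SE 0.095, adjusted p = 3.98e-13). ZEB1 was slightly higher at 0.23 (SE 0.053), and ZEB2 had 8.37, 8.94 and 9.35 against 7.75, 8.88 and 8.07 CPM and was not called. All 4 cytoskeletal markers were higher, with VIM at 0.72 (SE 0.025) and the smooth muscle actin ACTA2 at 1.73 (SE 0.20). In the matrix and at the surface, FN1, the receptor PDGFRB and the collagen cross-linker LOX were higher, at 1.43 (SE 0.038), 1.42 (SE 0.09) and 1.17 (SE 0.051), and tenascin C, TNC, was lower at -0.48 (SE 0.038). CDH11, a mesenchymal cadherin, was lower at -0.77 (SE 0.042). SPARC, a matrix glycoprotein, had 0.914, 0.583 and 4.0 against 0.938, 0.783 and 0.74 CPM, high in mutation 2 replicate 3 alone, and was not called. COL3A1, NCAM1 and TCF4 of this list are among the 86 genes of that library; they did not pass the filter, and their part in the list was not tested. The call of ZEB1 and LOX did not hold with all 12 libraries in the fit (adjusted p = 0.534 and 0.06).

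Epithelial markers were higher in 12 of 25 and lower in 9 (5 higher with all 12 libraries in the fit). Tight junction claudins differed among themselves: CLDN7 had 15.3, 17.2 and 17.2 against 39.4, 36.7 and 38.9 CPM (log2 fold change 1.21, SE 0.068, adjusted p = 6.43e-26), CLDN4 and CLDN3 were higher at 0.59 (SE 0.029) and 0.75 (SE 0.11), and CLDN1 was lower at -1.82 (SE 0.20). The desmosomal plaque gene DSP was higher at 0.73 (SE 0.032) and the splicing factor ESRP2 at 0.97 (SE 0.08). KRT80 had 394, 408 and 392 against 151, 152 and 148 CPM (log2 fold change -1.40, SE 0.03, adjusted p = 1.47e-49), and the simple keratins KRT8, KRT18 and KRT19 were higher by small steps, 0.20, 0.42 and 0.26. Of 19 tested breast lineage markers, 11 were higher and 5 lower, 5 and 2 with all 12 libraries. Of 15 tested regulators of mesenchymal lineages, 8 were higher and 5 lower, 5 and 3 with all 12 libraries. RUNX2, the master factor of bone, had 31.9, 34.1 and 31.9 against 108, 116 and 107 CPM (log2 fold change 1.76, SE 0.048, adjusted p = 1.53e-43), and CEBPD and PPARG, factors of fat cells, were higher at 1.50 (SE 0.056) and 1.05 (SE 0.073). BMP4, a bone morphogenetic protein, had 268, 261 and 270.1 against 83.8, 78.8 and 79.8 CPM (log2 fold change -1.71, SE 0.035, adjusted p = 3.71e-51). A fit to all 12 libraries did not call ESRP2, CLDN3, CLDN4, DSP, KRT8 and KRT19 (adjusted p = 0.161, 0.357, 0.0966, 0.434, 0.526 and 0.325).

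Matrix and adhesion genes differed in both directions. Of 13 integrins tested, 10 were higher and 2 lower: ITGB4, the partner of laminin-binding ITGA6, had 337, 361 and 347 against 1154, 1118 and 1091 CPM (log2 fold change 1.69, SE 0.028, adjusted p = 5.01e-57), and ITGB8, an activator of latent TGF-beta, was lower at -2.05 (SE 0.36). Proteases were split, 5 of 11 higher and 5 lower, with ADAMTS1 at 2.94 (SE 0.16), cathepsin B (CTSB) at 1.11 (SE 0.03) and cathepsin L (CTSL) at -0.60 (SE 0.046). Of 28 collagens and laminins, 14 were higher and 9 lower, 5 and 7 with all 12 libraries. COL17A1, the hemidesmosomal collagen, had 32.7, 30.7 and 29.2 against 3.13, 2.68 and 2.52 CPM (log2 fold change -3.45, SE 0.11, adjusted p = 5.56e-40), and COL12A1 was lower at -1.17 (SE 0.03), while COL6A2 was higher at 0.83 (SE 0.031). The laminin chains LAMA3 and LAMB3 lay at 0.93 (SE 0.044) and 0.18 (SE 0.026). Fitted with all 12 libraries, COL12A1 and LAMA3 no longer passed (adjusted p = 0.0745 and 0.064).

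In the EGF receptor pathway, 20 of 35 tested genes were higher and 9 lower, 9 and 6 with all 12 libraries. Of 7 ligands, 2 were higher and 2 lower: AREG and EREG (epiregulin) were higher at 3.85 (SE 0.039) and 2.52 (SE 0.052), whereas TGFA had 199, 191 and 196 against 98.4, 99.98 and 100.4 CPM (log2 fold change -0.96, SE 0.035, adjusted p = 1.74e-36). The receptor EGFR was slightly higher at 0.16 (SE 0.029) and ERBB2 lower at -0.43 (SE 0.042). Of 22 targets and AP-1 genes, 16 were higher and 3 lower. Among them the AP-1 subunits FOS and JUNB were higher at 1.15 (SE 0.25) and 1.24 (SE 0.054), as was the phosphatase DUSP1 at 1.30 (SE 0.089), and the subunit JUN was lower at -1.03 (SE 0.033). In the TGF-beta pathway, 14 of 24 were higher and 8 lower, 6 and 8 with all 12 libraries. INHBA, the activin A subunit, had 3.16, 3.17 and 2.93 against 14.7, 16.2 and 13.8 CPM (log2 fold change 2.28, SE 0.13, adjusted p = 3.03e-26), and the inhibitory SMAD6 and the BMP target ID3 were lower at -1.36 (SE 0.087) and -1.12 (SE 0.079). Of 28 YAP/TAZ genes, 11 were higher and 13 lower, 6 and 8 with all 12 libraries. CCN1 was higher at 0.81 (SE 0.025), CCN2 lower at -0.12 (SE 0.034), and TEAD4 lower and TEAD3 higher at -0.89 (SE 0.084) and 0.75 (SE 0.043). In the 12-library fit the call was lost for INHBA, EGFR and CCN2 (adjusted p = 0.0882, 0.341 and 0.664).

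Amino acid genes under ATF4, the factor of the integrated stress response, were split, with 13 of 30 higher and 15 lower. Serine synthesis was lower in all 3 of its enzymes: PHGDH had 43.3, 43.9 and 45.97 CPM with mutation 2 and 4.56, 4.44 and 4.59 with mutation 3 (log2 fold change -3.29, SE 0.087, adjusted p = 2.31e-44), and PSAT1 and PSPH lay at -2.09 (SE 0.044) and -1.09 (SE 0.069). Transporters were lower in 6 of 7, with the cystine carrier SLC7A11 at -1.73 (SE 0.059). ATF4 itself was slightly higher at 0.11 (SE 0.03), DDIT3 (CHOP), its target, at 1.51 (SE 0.097), and the glutathione-degrading CHAC1 was lower at -2.79 (SE 0.21). Of 20 endoplasmic reticulum stress genes, 12 were higher and 5 lower (7 higher with all 12 libraries), with HERPUD1 and ERN1 at 1.19 (SE 0.052) and 1.26 (SE 0.061), and the chaperone HSPA5 at 0.13 (SE 0.025). The co-chaperone genes DNAJB11 and SDF2L1 were lower at -0.70 (SE 0.043) and -0.66 (SE 0.093). The call of ATF4 and HSPA5 did not hold with all 12 libraries in the fit (adjusted p = 0.709 and 0.345).

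Of 29 cholesterol genes, 15 were higher and 11 lower. Of 5 uptake and export genes, 4 were higher and none lower, the exporter ABCA1 with 37.8, 41.2 and 38.4 against 151, 154 and 152 CPM (log2 fold change 1.97, SE 0.043, adjusted p = 2.63e-49) and the LDL receptor ligase MYLIP at 1.69 (SE 0.073), and the synthesis genes HSD17B7 and PMVK lay at 1.18 (SE 0.11) and -0.78 (SE 0.067). Of 26 antioxidant genes under NRF2, 13 were higher and 11 lower. The ferritin chains FTL and FTH1 were higher at 1.37 (SE 0.025) and 0.85 (SE 0.03) and the metallothionein MT1X at 2.15 (SE 0.14). AKR1C1, an aldo-keto reductase, had 77.05, 73.5 and 70.4 against 8.69, 9.92 and 8.58 CPM (log2 fold change -3.01, SE 0.069, adjusted p = 2.78e-48).

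Mitochondrial mRNAs held 5.57%, 4.48% and 4.57% of counts with mutation 2 and 5.05%, 4.86% and 4.81% with mutation 3, a difference of 0.0326 percentage points (exact permutation test, two-sided, p = 1.0, n = 3 per group, where 0.1 is the smallest p that 3 against 3 can give). With the mitochondrial ribosomal RNAs added, the shares were 6.85% ± 0.697 and 8.82% ± 0.136 (SD, n = 3), and the groups did not overlap (exact p = 0.1). Single mitochondrial transcripts shifted against each other: MT-ND4 had 9486, 7569 and 7829 against 13810.0, 13450.0 and 13170.0 CPM (log2 fold change 0.71, SE 0.10, adjusted p = 0.00254) and MT-CO3 had 4348, 3443 and 3651 against 2286, 2163 and 2184 (log2 fold change -0.78, SE 0.10, adjusted p = 0.00182). Of 13, 2 were higher and 3 lower, and without mutation 2 replicate 1, whose mitochondrial share was the highest, 7 were higher. None was higher and 1 was lower in the 12-library fit. Of 35 nuclear genes of complex I, 14 were higher and 16 lower (5 higher with all 12 libraries), with NDUFV2 at 2.38 (SE 0.18) and NDUFC2 at -0.79 (SE 0.096). A fit to all 12 libraries did not call MT-CO3 and MT-ND4 (adjusted p = 0.0926 and 0.212).

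Differences also ran in blocks along the genome. Tested genes were ordered along each chromosome (GENCODE v29, hg38) and cut into 269 runs of 50 neighbours, whose median log2 fold changes lay between -0.23 and 0.26 from the 10th to the 90th percentile. Medians reached 0.4 or more in 17 runs and -0.4 or less in 6. A step lay on chromosome 10: from 100248271 to 103389065 the median was 0.63, with 34 genes higher and 8 lower, and in the next run, from 103389041 to 118755249, it was -0.64, with 10 higher and 33 lower. The run after it, from 118692361 to 128126385, which ends at MKI67, had -0.75, with 5 higher and 39 lower. On chromosome 6, the run from 26103876 to 33789136, which holds histone and MHC genes, had 0.72 (37 higher, 3 lower), and that from 84124241 to 107115269 had -0.57 (7 higher, 38 lower). Chromosome 16 from 50693588 to 89201664 had 5 runs in a row at 0.32 to 0.57, and a run of chromosome 2, from 231781671 to 241317061, had -0.55.

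Replicates of a group had similar run levels. As the median over a run's genes of the log2 level (CPM + 0.5) relative to the 6-library mean, the run ending at MKI67 lay at 0.39, 0.37 and 0.30 with mutation 2 and -0.38, -0.39 and -0.34 with mutation 3. In the other groups the same run lay at 0, 0.36 and 0.35 in wild type and -0.29, -0.31 and -0.41 with mutation 1. The MHC run of chromosome 6 lay at -0.27, -0.31 and -0.34 with mutation 2, 0.30, 0.36 and 0.29 with mutation 3 and 0.51, 0.45 and 0.41 with mutation 1. By chromosome, 16 (49.7% higher, 25.9% lower), 17 (47.2% and 32.7%) and 19 (46.6% and 28.8%) had the most genes higher, and chromosome 2 the most lower (31.2% and 48.3%). Some of the genes named above are placed here as examples. NGFR lies in a run of chromosome 17 with a median of 0.49 and VEGFA in a run of chromosome 6 with 0.39. DIS3L2, ACKR3 and COL6A3 lie in the chromosome 2 run with -0.55. IFITM1 and IFITM3 lie in a run of chromosome 11, from 127204 to 2397419, with a median of 0.425 (33 higher, 8 lower). HLA-B lies in the MHC run of chromosome 6. NLRC5 and RBL2 lie in a chromosome 16 run with 0.564, CDT1 in another run of that chromosome with 0.531 and B2M in a chromosome 15 run with 0.181. The part of a shared region in these results was not tested.

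**Figure D5:**
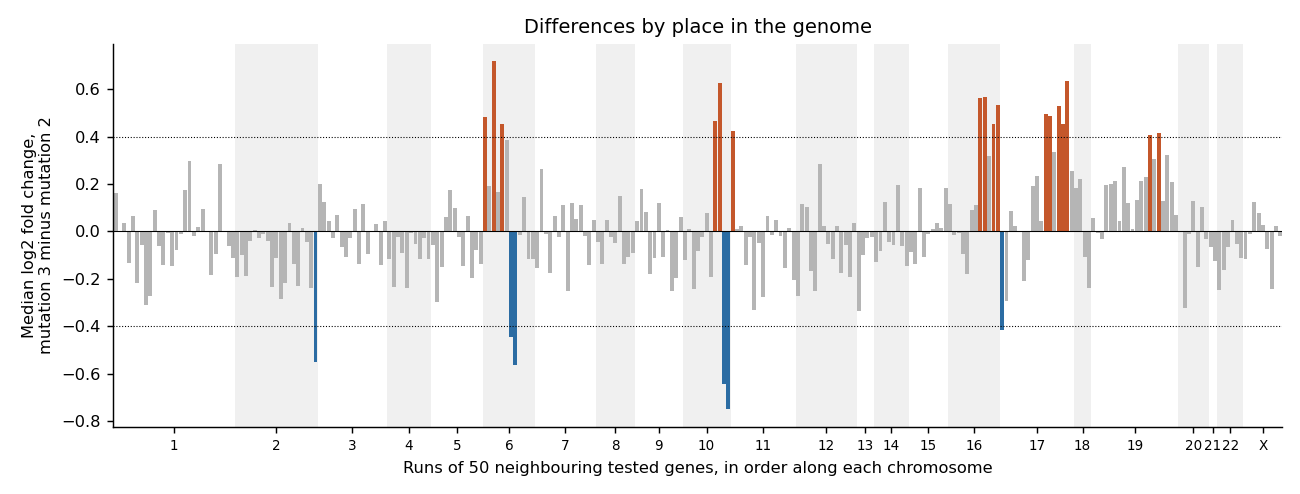
Each bar is the median log2 fold change, mutation 3 minus mutation 2, of a run of 50 neighbouring tested genes, in order along chromosomes 1 to 22 and X; coloured bars are at 0.4 or more (orange) or -0.4 or less (blue), the dotted lines. Coloured bars sit side by side on chromosomes 6, 10, 16 and 17, with a step from 0.63 to -0.64 on chromosome 10.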

How the data were processed

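RNA of 12 libraries was measured by poly(A) RNA-seq, and the 6 of mutation 2 and mutation 3 were compared. The deposited values are raw counts of read pairs per gene, made by the authors with featureCounts 2.0.6 per the file headers, without strand, over exons of a hg38 Ensembl track at a mapping quality of 10 or more. Trimming with cutadapt 1.9.1, quality control with FastQC 0.11.8 and the tools STAR, SAMtools and DESeq2 (versions not given in the sources used here) are named in the submitters' processing notes. Of 64252 gene IDs, 56591 (88.1%) had a symbol and a GENCODE v29 position. Genes were filtered with filterByExpr (minimum count 10, total 15), scaled by TMM and tested with edgeR 4.0.16 (quasi-likelihood, robust, R 4.3.3), with Benjamini-Hochberg adjusted p under 0.05 as a call; the script was tested on simulated data. The common dispersion was 0.000651 with 4 residual degrees of freedom. Levels are CPM, counts divided by library totals with TMM factors from all 12 libraries. Alternatives were DESeq2 1.42.0, other scalings, no filter, more libraries in the fit and each library left out. The members and lists were chosen with earlier results of these data known. Named were DICER1, the 15 largest changes each way at 5 CPM or more without overlap, and per list the 4 largest and up to 2 against its median; other list members were chosen after their values were seen. Some genes are not reported here.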

Additional observations from a re-analysis of the deposited data

How the results depend on the processing

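The number of called genes was 10992 with DESeq2 size factors, 11017 with upper-quartile scaling, 10125 with DESeq2, 11642 with no filter, 10983 without mitochondrial genes, 11215 with the 9 mutant libraries, 7980 with all 12 libraries and 10665 to 10961 with 1 library left out. Of the 7980, 7758 were shared with the main fit, all in the same direction. Among the single-gene results followed, 37 lost their call with all 12 libraries and 1 with the 9 mutant libraries. Whether the spread of the wild-type libraries accounts for these losses was not tested. The genes past 1.5-fold, 4251, came to 2967 with DESeq2 and 2903 with all 12 libraries. With all 12 libraries, list counts of higher calls were 8 for let-7 and 8 for miR-29 and miR-221 targets, 5 for epithelial markers, 5 for lineage regulators (3 lower), 5 for MHC class I, 1 for G1/S, 3 for G1 cyclins, 7 for endoplasmic reticulum stress, 17 for hypoxia (2 lower), 6 for YAP/TAZ (8 lower), 6 for TGF-beta, 9 for EGF receptor, 5 for collagens, 0 for mitochondrial mRNAs (1 lower), 5 for complex I and 5 for breast lineage (2 lower). Lower calls were 5 for integrins and proteases and 0 for snoRNA hosts. Lower mitochondrial mRNAs were 5 with DESeq2 and 5 with the 9 mutant libraries, and 4 were higher with no filter. Markers of other cell types were 1 higher with DESeq2, and 4 higher and 2 lower with no filter, where 7 mesenchymal markers were lower. With 1 library left out, mitochondrial mRNAs called higher ranged from 2 to 7, other cell type markers from 1 to 2 higher and 0 to 1 lower, and snoRNA hosts called lower from 0 to 1. The mitochondrial mRNA share difference was -0.165, -0.118 and -0.04 percentage points without mutation 2 replicate 2, mutation 2 replicate 3 and mutation 3 replicate 1, and ranged up to 0.38. The SPARC log2 fold change was 0.15 without mutation 2 replicate 3 and -1.64 without mutation 2 replicate 2. The cause was not tested in any of these. No paired analysis was possible because the labels of the mutant libraries carry no replicate numbers. The replicate numbers given to them here follow the order of the samples in the series. Depth limits genes of few counts: 34560 genes had none in the 6 libraries.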
